A study of Rattus norvegicus with 6 samples.

Results

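The MAP kinase cascade kinases were examined in RNA-Seq of whole testis from 3 diabetic (DM) and 3 non-diabetic (ND) Sprague-Dawley rats, an outbred strain. The members are the genes whose symbol is Mapk, Map2k, Map3k or Map4k followed only by a number, and 42 of the 35291 genes of the deposited table met that rule. The DM rats had been kept on a high-fat diet for 1 month, had then received a single intraperitoneal injection of the beta cell toxin streptozotocin (35 mg/kg), and counted as diabetic if their blood glucose stayed high. The ND rats had received citrate buffer, and the methods do not say whether they were given the high-fat diet too, so an effect of diet and an effect of diabetes cannot be told apart here. Testes were taken 8 weeks after the injection, and the rats were adult males whose age in weeks is not stated. The same replicate number in the groups does not mark a shared animal.

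MAP kinase cascades are relays of kinases in which a MAP4K or another upstream signal activates a MAP3K, which phosphorylates a MAP2K, which in turn phosphorylates a MAPK on the threonine and tyrosine of its activation loop. The ERK arm answers mainly to growth factors, the JNK and p38 arms to stress and cytokines, and the ERK5 arm, built from MEKK2 or MEKK3, MEK5 and ERK5, to both. The atypical MAPKs ERK3, ERK4 and ERK7 are not driven by the usual MAP2K. In the testis these cascades are known from spermatogonial proliferation, the blood-testis barrier and the response of Leydig cells to luteinizing hormone. RNA-Seq measures the mRNA of these kinases and not their phosphorylation or activity.

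The study followed 1 member in particular, Map2k5, which encodes MEK5 and was a target of miR-504 by computational prediction. It took MEK5 and MEF2C from a network that joined predicted targets with mRNAs called changed in the diabetic testes. The network also required the miRNA and its mRNA to change in opposite directions. That screen was of transcripts, whereas the values below are per gene. In cultured R2C Leydig cells it also reported less MEK5 and MEF2C, as mRNA and as protein, in high glucose and with a miR-504 mimic. A miR-504 inhibitor reversed the fall seen in high glucose. The values below are mRNA of whole testis, and those cell experiments were not examined here. The mature miRNA is shown because it is one of the regulators, beside miR-935, for which the ERK5 arm was singled out, with the seed (bases 2 to 8) in capitals, from RefSeq (GRCr8).
rno-miR-504: aGACCCUGgucugcacucuguc
The small RNA libraries were not analysed here, so the comparison below concerns the mRNA of the kinases alone.

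Values are FPKM, fragment counts scaled to the length of the transcript and to library size, so levels of different genes can be set beside each other per unit of length. The depth in reads is unknown. The FPKM of a sample summed to between 453304 and 478211. The test was limma on log2(FPKM + 0.1), fitted to the 20338 genes whose mean in the 6 rats reached 0.5 FPKM. A log2 fold change is always DM minus ND on that scale, where the added 0.1 shrinks the differences of weakly expressed genes. All tests were two-sided, and the exact permutation test of a single gene could reach no p under 0.1 with 3 rats in each group. Nothing in the labels separates the rats of a group beyond their number, and no batch is given. As to the tissue label, the 6 spermatid markers summed to between 10699 and 12898 FPKM in every rat, and the 5 adipocyte markers summed to between 5.48 and 8.17 FPKM, none of them at 0 in all rats. Of the other marker lists, the 5 Leydig cell markers found (Star, Cyp11a1, Cyp17a1, Insl3 and Lhcgr) were all lower in DM testes at an unadjusted p from limma below 0.05, and their sum was 26.8 to 55.4 FPKM in DM and 81.6 to 115 FPKM in ND rats. Fewer cells of a type and less RNA per cell cannot be told apart in whole testis. Of the macrophage markers, 2 of 5 were lower at the same threshold, with sums of 25.6 to 30.8 FPKM in DM and 30.4 to 31.9 FPKM in ND rats, and of the spermatogonial markers 1 of 5 was lower. None of the Sertoli, peritubular, endothelial, spermatocyte, spermatid, red blood cell or adipocyte markers tested passed it. The part of cell composition in the results below was not tested.

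The cascade was transcribed at very unequal levels in testis, and Mapk6 stood above every other member. Of the 42 kinases, 14 reached a 6-rat mean of 10 FPKM, 19 lay between 1 and 10 FPKM and 9 were below 1 FPKM. Mapk6, which encodes the atypical kinase ERK3, was at 147, 141 and 144 FPKM in the DM rats and at 153, 151 and 157 FPKM in the ND rats. Its mean of 148.7 FPKM was 4.37 times that of the next member, Map2k2, and higher than 97.5% of all genes tested. Map2k2, which encodes MEK2, Mapk3, which encodes ERK1, and Mapk8, which encodes JNK1, followed at 34.0, 32.2 and 31.7 FPKM over the 6 rats. Their ranges overlapped, so the order among these 3 was not resolved. Next came Map4k3 at 24.8 FPKM and Mapk15, which encodes the atypical kinase ERK7, a protein known from cilia, at 19.0 FPKM. The ranges of these 2 did not overlap. In the order of levels, the ranges of neighbours overlapped for 36 of the 41 pairs, so most of the order is one of steps smaller than the spread between rats.

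**Figure D1:**
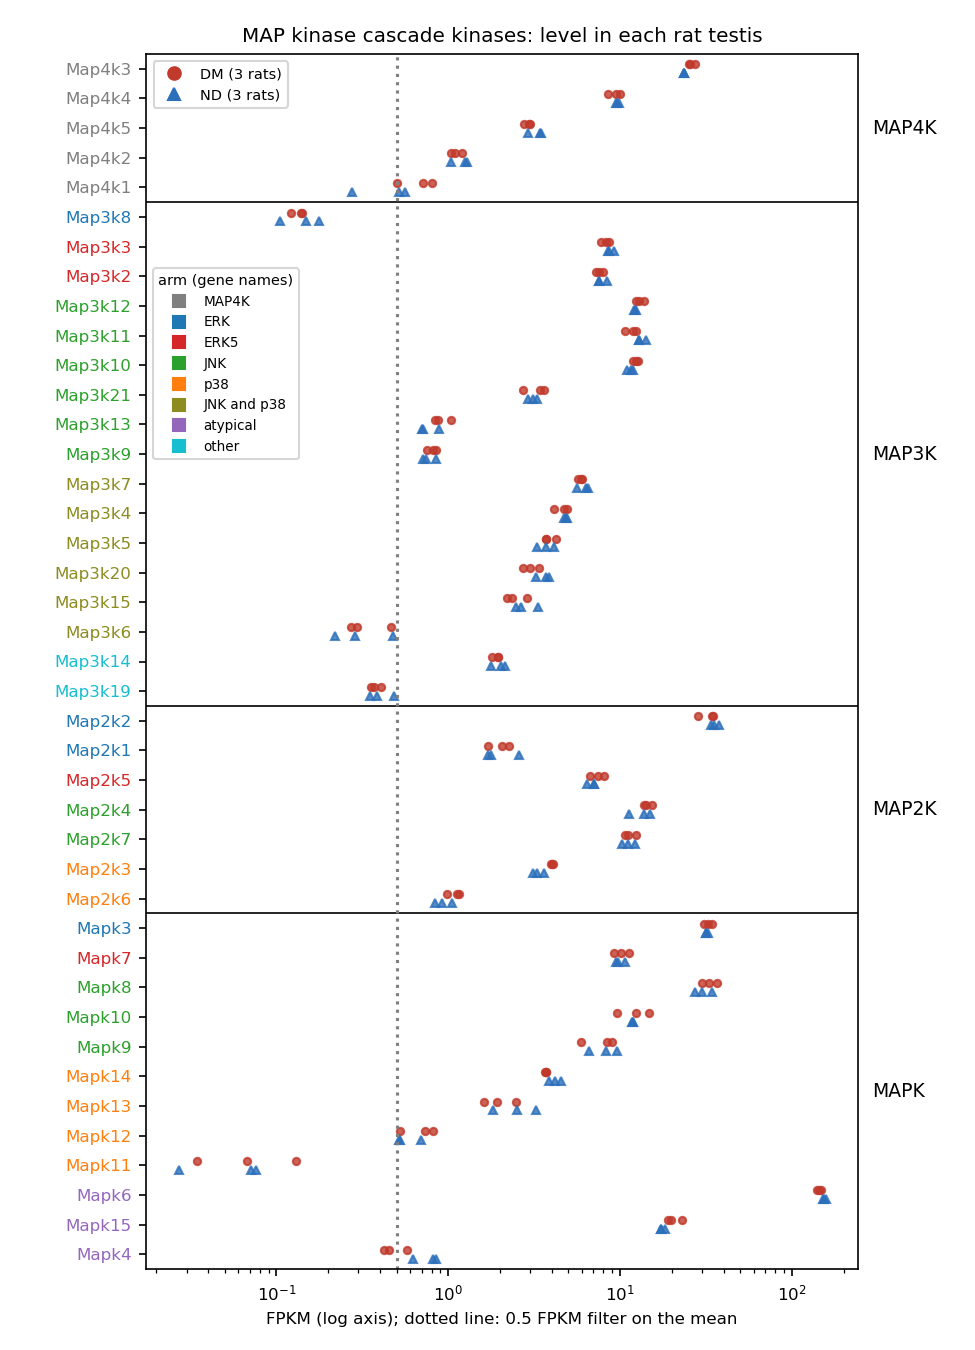
Level of 41 of the 42 kinases in every rat, in FPKM on a log axis, with DM rats as circles and ND rats as triangles. The kinases are ordered by tier, and the colour of the name gives the arm. Mapk6 sits at 141 to 157 FPKM, apart from all other kinases, and Map3k6, Map3k8, Map3k19 and Mapk11 have means left of the dotted line at 0.5 FPKM.

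At the low end, 4 members had a mean below 0.5 FPKM and were not tested. They were Mapk11 (p38 beta), at 0.0270 to 0.130 FPKM over the 6 rats, Map3k8 (TPL2, which activates the ERK arm in myeloid cells), at 0.105 to 0.178 FPKM, Map3k6 (ASK2), at 0.219 to 0.479 FPKM, and Map3k19, at 0.349 to 0.482 FPKM. The groups overlapped for each of the 4. Nearest above the threshold were Map4k1 at 0.561 FPKM, Mapk4 at 0.626 FPKM and Mapk12 at 0.633 FPKM. Map4k1 and Mapk4 reached it through 1 group only, with means of 0.672 FPKM in DM and 0.450 FPKM in ND rats for Map4k1 and 0.485 FPKM in DM and 0.766 FPKM in ND rats for Mapk4.

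Within the families of kinases the same member led in every rat, with the exception of 2 near-even pairs of those described here. In the ERK arm, Map2k2 held 92.6% to 95.4% of the MEK1 and MEK2 sum, since Map2k1 was at only 2.01 FPKM over the 6 rats. Of the JNK genes, Mapk8 held 56.4% to 66.3%. Mapk10, which encodes JNK3, a kinase best known from neurons, held 17.4% to 27.7% and the widely expressed Mapk9 (JNK2) 11.6% to 17.5%, and these 2 ranges overlapped. The p38 genes were low as a family, at a sum of 6.18 to 8.05 FPKM, and Mapk14 (p38 alpha) held 52.1% to 63.7% of it, with most of the remainder in Mapk13 (p38 delta). The near-even pairs were Map2k4 and Map2k7, which encode the JNK kinases MKK4 and MKK7, with Map2k4 at 47.8% to 59.0%, and Map3k2 and Map3k3, which encode MEKK2 and MEKK3, with Map3k3 at 49.3% to 54.6%.

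**Figure D2:**
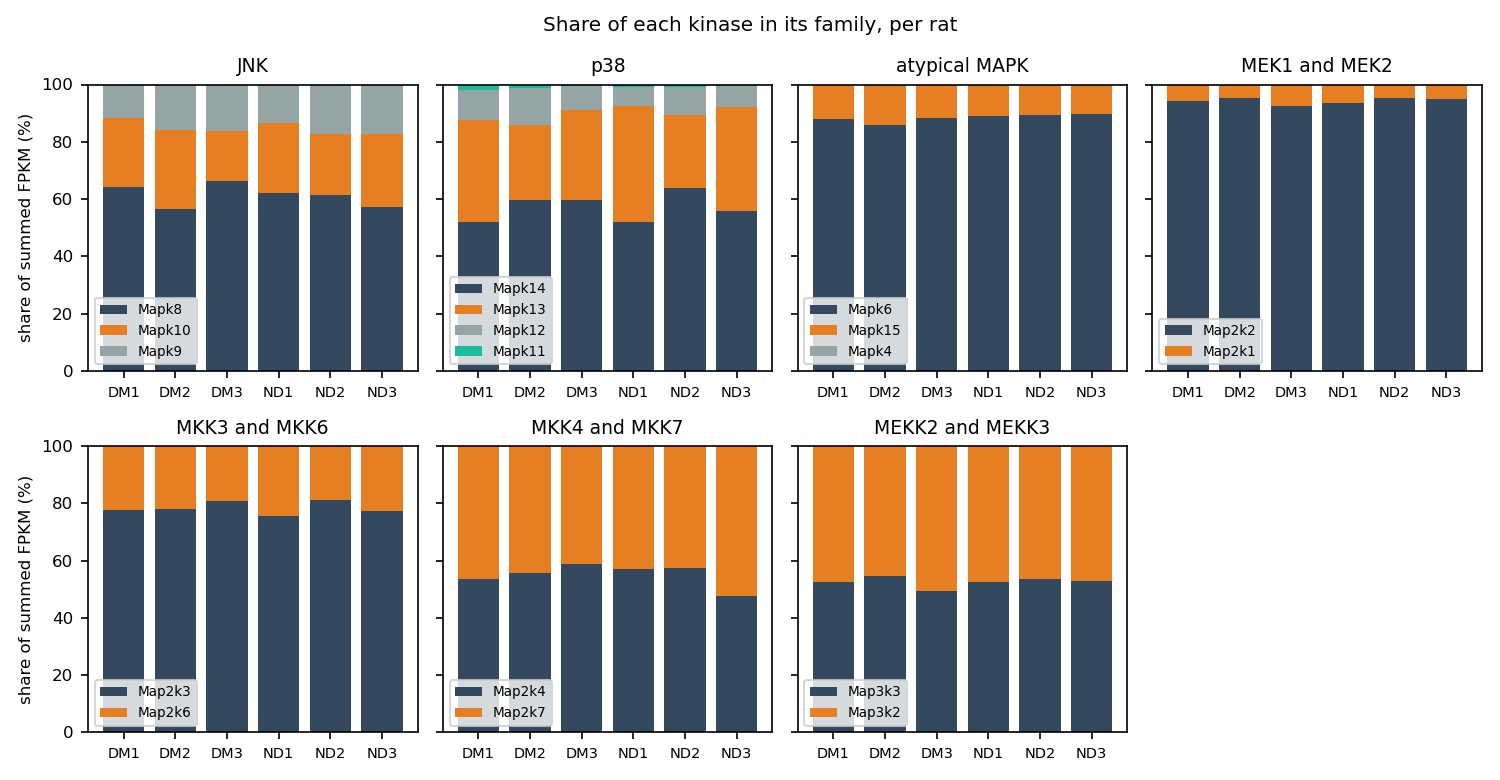
Share of the summed FPKM of a family held by each member, in percent, as stacked bars for each of the 3 DM and 3 ND rats. The shares vary least for Map2k2, at 92.6% to 95.4% of MEK1 and MEK2, and more between rats of 1 group in JNK and p38, where Mapk13 runs from 25.6% to 40.4%. Mapk4 holds under 1% of the atypical MAPKs and cannot be seen at this scale.

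These shares did not separate the groups, apart from the atypical MAPKs. The share of the leading member was compared in 9 families, of which 7 are plotted. For the atypical MAPKs the share of Mapk6 was 87.3% ± 1.33 in DM and 89.3% ± 0.391 in ND rats (SD, n = 3 each), a difference of -2.05 points with groups that did not overlap (exact permutation test, p = 0.1, adjusted over the 9 families p = 0.788). For the other 8 families the exact permutation p was 0.6 to 1. The share of Mapk8 among JNK was 62.3% ± 5.23 in DM and 60.3% ± 2.59 in ND rats (SD, n = 3 each). When the rats were dropped 1 at a time, the difference kept its direction for Mapk6 (-2.50 to -1.29 points) and took both signs in each of the other families, as for Mapk8 (-0.0131 to 4.95 points).

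Between DM and ND testes the kinases differed little. Of the 38 members tested, 3 had an unadjusted p from limma below 0.05, which is 7.89% of them, against 7.46% of all 20338 genes tested. All 3, Map2k3, Mapk15 and Map4k3, were higher in DM rats, and 2.47% of all genes passed in that direction. No member was lower at that threshold, and 4.99% of all genes were. The study's own criterion, a change of 1 or more on the log2 scale together with an unadjusted p below 0.05, was met by 0 of the 38 in limma and by 1.24% of all genes tested. An adjusted p below 0.05 was reached by 0 of the 38 and by 0.0344% of all genes. The lowest adjusted p of a member was 0.661. The median log2 fold change was 0.014 over the members, with 20 above and 18 below 0, and -0.021 over all genes tested. By tier it was -0.053 for the 5 MAP4K, -0.050 for the 14 MAP3K, 0.10 for the 7 MAP2K and -0.0093 for the 12 MAPK genes tested. By arm it was -0.017 for the 4 ERK, 0.068 for the 11 JNK and 0.195 for the 5 p38 genes tested. It was -0.071 for the 5 MAP3K genes shared by JNK and p38, and -0.0049 for the 4 ERK5 genes. The 5 p38 genes ran from -0.30 to 0.27, with 3 above and 2 below 0.

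The intervals show what sizes of change the data allow under the model of limma, whose 95% is nominal. For 30 of the 38 members, or 78.9%, the 95% interval of the fold change from limma lay wholly inside a 1.5-fold change in either direction, which held for 58.7% of all genes tested. For 36 members it lay inside a 2-fold change, against 80.9% of all genes. The remaining 2 were Map4k1, with an interval of -0.34 to 1.36 on the log2 scale, and Mapk4, with -1.24 to 0.11, the same genes that passed the filter through 1 group. The 8 members whose interval crossed the 1.5-fold bound had means between 0.561 and 2.64 FPKM. The coefficient of variation over the 6 rats had a median of 9.13% for the members tested and of 13.1% for all genes tested.

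**Figure D3:**
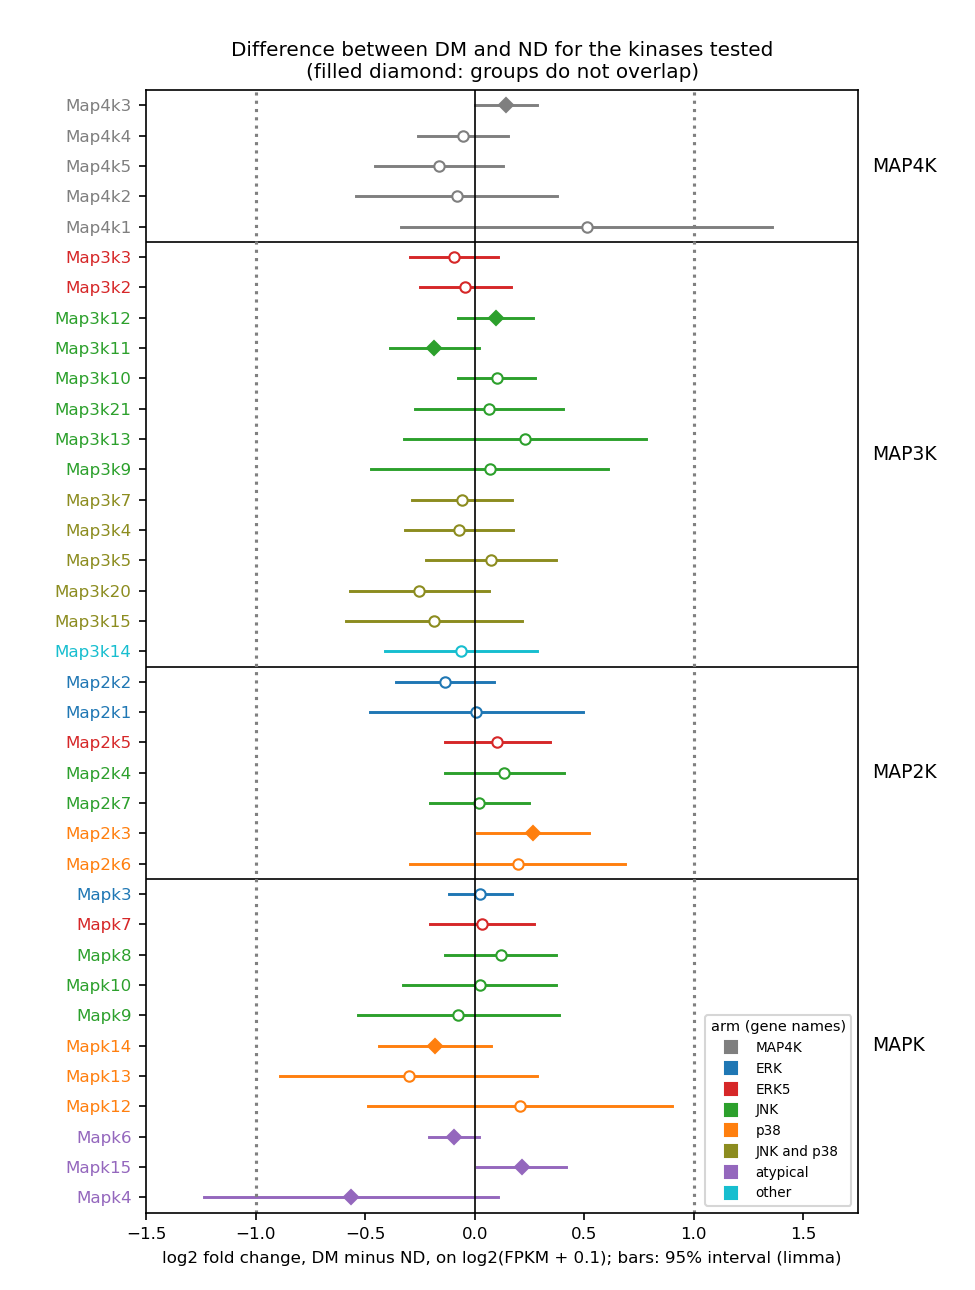
Log2 fold change (DM minus ND) of 37 of the 38 kinases tested, with 95% intervals from limma and dotted lines at -1 and 1. Filled diamonds mark the 8 kinases whose groups did not overlap. The values lie between -0.56 for Mapk4 and 0.51 for Map4k1, and no interval except those of these 2 reaches a dotted line.

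The ERK5 arm, the route of the study's interest, was at middle levels, and the DM and ND values of each of its 4 genes overlapped. Among the 42 kinases Map2k5 ranked 18 or 19 by FPKM in every rat and Mapk7, which encodes ERK5, ranked 13 to 15. Mapk7 was at 11.3, 10.2 and 9.16 FPKM in the DM rats and at 10.7, 9.70 and 9.49 FPKM in the ND rats. The groups overlapped, with both the highest and the lowest of the 6 values in DM rats. The 95% interval of its log2 fold change of 0.033 ran from -0.21 to 0.27 (limma, adjusted p = 0.972), or from 0.867 to 1.21 as a fold. Map2k5 was at 7.41, 8.08 and 6.67 FPKM in the DM rats and at 7.08, 6.44 and 7.05 FPKM in the ND rats. Here too the groups overlapped, with the highest value in a DM rat and the lowest in an ND rat. The log2 fold change was 0.10 (limma, adjusted p = 0.897), and its interval of -0.14 to 0.34 corresponds to a change of between -9.08% and 26.9%. By the size of their log2 fold changes, Map2k5 and Mapk7 were the 10th and 16th highest of the 38.

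The MAP3K genes of the same arm lay just below 0. Map3k3 was at 8.27, 8.66 and 7.74 FPKM in the DM rats and at 9.22, 8.66 and 8.48 FPKM in the ND rats, a log2 fold change of -0.094 (limma, adjusted p = 0.879). Map3k2 was at 7.52, 7.22 and 7.95 FPKM in the DM rats and at 8.34, 7.51 and 7.53 FPKM in the ND rats, a log2 fold change of -0.043 (limma, adjusted p = 0.954). The groups overlapped for each gene. The sum of the pair did not overlap, at 15.8 ± 0.0921 FPKM in DM and 16.6 ± 0.855 FPKM in ND rats (SD, n = 3 each, exact permutation test, p = 0.1, and p = 0.3 adjusted over the 9 family sums compared). The highest DM sum was 15.88 and the lowest ND sum 16.01 FPKM. Of the 9 sums 3 did not overlap in FPKM as deposited, those of this pair, of MKK3 with MKK6 and of the atypical MAPKs. No share over sums of other genes was computed. For this pair and the atypical MAPKs the gap was small beside the median-ratio factors, so it is not read as a group difference. The last was at 163 to 167 FPKM in DM and 169 to 175 FPKM in ND rats. All 4 genes of the arm had intervals inside 1.5-fold. Mef2c, the transcription factor gene downstream of ERK5, had a log2 fold change of -0.0080 with an interval of -0.51 to 0.49 (limma, adjusted p = 0.997), at a level of 1.30 to 1.86 FPKM in the 6 rats.

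**Figure D4:**
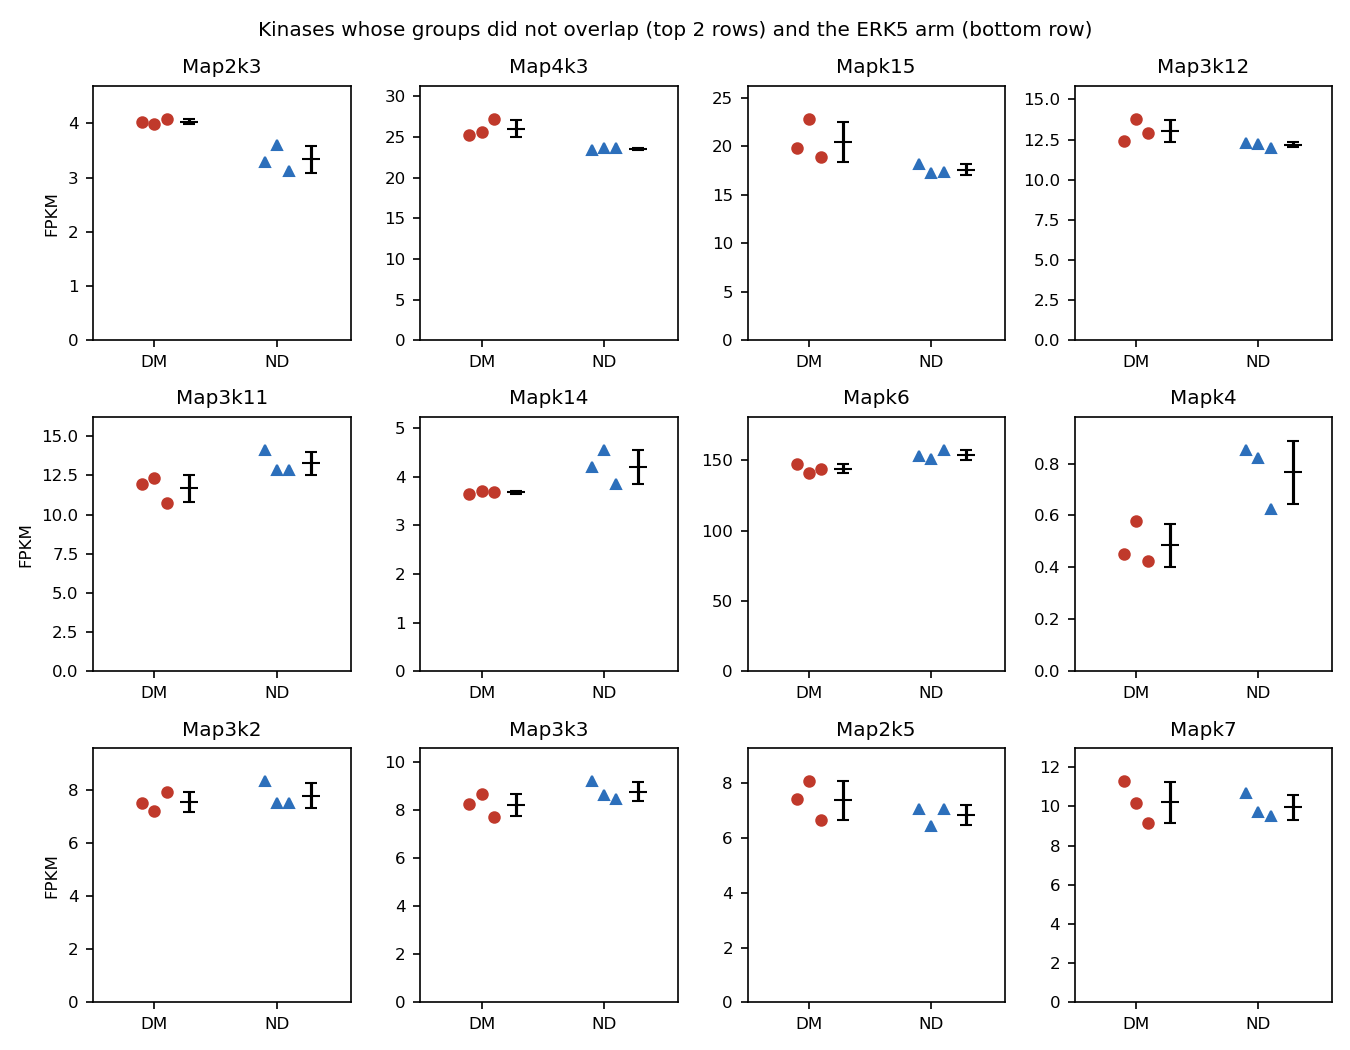
FPKM of 12 kinases in each rat, DM as circles and ND as triangles, with the mean and SD (n = 3) as a bar beside the points and every axis starting at 0. In the upper rows the 3 DM values lie wholly above or below the 3 ND values, and in the bottom row, the ERK5 arm of Map3k2, Map3k3, Map2k5 and Mapk7, the groups overlap.

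For 8 of the 38 members, or 21.1%, the 3 DM values all lay on 1 side of the 3 ND values, against 13% of all genes tested. Of these 4 were higher in DM rats (4.56% of all genes) and 4 lower (8.42% of all genes). Mapk4 is among the 4 lower, but it reached the filter through its ND values alone and is counted only as a description. With the filter raised to 1 FPKM, which leaves out Mapk4, 7 of 33 members did not overlap. The share of all genes at that filter was not computed. An exact permutation test gave p = 0.1 for each of the 8, the smallest it can give, and the differences were small.

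In the p38 arm, the activating kinase and the main p38 gene lay on opposite sides. Map2k3, which encodes MKK3, a MAP2K of p38, was at 4.02, 3.99 and 4.08 FPKM in the DM rats and at 3.28, 3.60 and 3.12 FPKM in the ND rats. The 3 DM rats lay within 0.1 FPKM of each other and above every ND rat. The difference was 0.27 ± 0.11 (SE) in log2 (limma, unadjusted p = 0.0424, adjusted p = 0.661). Map2k6, which encodes the second p38 kinase MKK6, had a log2 fold change of 0.20 with groups that overlapped (limma, adjusted p = 0.907). The sum of both was 5.06 to 5.18 FPKM in DM and 4.05 to 4.43 FPKM in ND rats, without overlap (exact permutation test, p = 0.1, and p = 0.3 adjusted over the 9 family sums). Mapk14 was at 3.65, 3.70 and 3.69 FPKM in the DM rats and at 4.20, 4.54 and 3.84 FPKM in the ND rats. Every DM rat lay below every ND rat, but the log2 fold change of -0.18 was not past the threshold (limma, unadjusted p = 0.140). Mapk13 was at 1.61 to 2.49 FPKM in DM and 1.82 to 3.25 FPKM in ND rats, and Mapk12 at 0.521 to 0.811 and 0.518 to 0.693 FPKM, and both overlapped.

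Of the atypical MAPKs, Mapk15 was higher and Mapk6 lower in DM rats without overlap, which held for 13% of all genes tested. Mapk4 did not overlap either, but it entered the test through its ND values alone. Mapk15 was at 19.8, 22.8 and 18.9 FPKM in the DM rats and at 18.2, 17.2 and 17.4 FPKM in the ND rats. DM replicate 2 was the highest, and every DM rat lay above every ND rat. The difference was 0.21 ± 0.086 (SE) in log2 (limma, unadjusted p = 0.0414, adjusted p = 0.661). Mapk15 overlaps Ccdc166 in RefSeq (GRCr8), and the strand of the library is not stated, so reads of the 2 genes may not have been told apart. Ccdc166 was at 17.3 to 19.0 FPKM in DM and 14.6 to 19.1 FPKM in ND rats, and its groups overlapped. For Mapk6, whose values stand above, every DM rat lay below every ND rat in FPKM as deposited. The log2 fold change was -0.095 (limma, unadjusted p = 0.0928), with means of 143.8 ± 3.18 FPKM in DM and 153.6 ± 3.23 FPKM in ND rats (SD, n = 3 each). With median-ratio scaling the unadjusted p from limma for Mapk6 was 0.245, so its small separation depends on the scaling. Mapk4, which encodes ERK4, the close relative of ERK3, was at 0.453, 0.579 and 0.424 FPKM in the DM rats and at 0.851, 0.820 and 0.627 FPKM in the ND rats. Its log2 fold change of -0.56 was the lowest of the members (limma, unadjusted p = 0.0878). It is given as a description, since Mapk4 reached the filter only through the group where it was high.

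In the upper tiers, 1 of the 5 MAP4K and 2 of the 14 MAP3K genes tested showed no overlap, against 13% of all genes. Map4k3, which encodes GLK, a kinase linked to amino acid sensing and JNK, was at 25.3, 25.6 and 27.2 FPKM in the DM rats and at 23.4, 23.6 and 23.6 FPKM in the ND rats. The ND rats lay within 0.3 FPKM of each other. The difference was 0.14 ± 0.060 (SE) in log2 (limma, unadjusted p = 0.0493, adjusted p = 0.667), so this gene was at the very edge of the threshold. The 2 MAP3K genes were mixed-lineage kinases, which feed JNK. Of the 6 MAP3K genes placed in the JNK arm alone, 5 had log2 fold changes above 0 and 1, Map3k11, below 0, with 0 past the threshold in limma. Map3k20, placed with the genes shared by JNK and p38, is not among these 6 and had a log2 fold change of -0.25. Map3k11, which encodes MLK3, was at 11.96, 12.35 and 10.71 FPKM in the DM rats and at 14.11, 12.85 and 12.86 FPKM in the ND rats, with a log2 fold change of -0.19 (limma, unadjusted p = 0.0674). Map3k12, which encodes DLK, a kinase known from axon injury, was at 12.41, 13.77 and 12.88 FPKM in the DM rats and at 12.30, 12.23 and 11.99 FPKM in the ND rats, with a log2 fold change of 0.095 (limma, unadjusted p = 0.231). The lowest DM rat and the highest ND rat nearly met. Map3k12 overlaps Pcbp2 in RefSeq, a gene at 204 to 222 FPKM in DM and 190 to 208 FPKM in ND rats. The log2 fold change of Pcbp2 was 0.086, and its groups overlapped. As with Mapk15, reads of the 2 genes may not have been told apart, and this was not tested.

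The other members had groups that overlapped. The largest fall among the MAP3K genes was that of Map3k20, which encodes ZAK, a sensor of stalled ribosomes, at 2.98, 3.36 and 2.71 FPKM in the DM rats and at 3.86, 3.73 and 3.24 FPKM in the ND rats. Its log2 fold change of -0.25 did not pass the threshold (limma, unadjusted p = 0.101). The highest value among the MAP3K genes was the 0.23 of Map3k13, which encodes LZK (limma, unadjusted p = 0.362). Map4k1, which encodes HPK1 of blood cells, was at 0.800, 0.710 and 0.505 FPKM in the DM rats and at 0.275, 0.515 and 0.561 FPKM in the ND rats, and although its log2 fold change of 0.51 was the highest of the 38, the rats overlapped (limma, unadjusted p = 0.198). The lowest of the MAP4K genes was Map4k5 at -0.16 (limma, unadjusted p = 0.231). Map3k7, which encodes TAK1, the MAP3K of cytokine receptors, was the highest of the MAP3K genes shared by JNK and p38 at 5.58 to 6.49 FPKM in the 6 rats, and had a log2 fold change of -0.058 (limma, adjusted p = 0.939). Map3k14, which encodes NIK of the non-canonical NF-kB pathway, had one of -0.063 (limma, adjusted p = 0.962). In the ERK arm Map2k2, at 34.4, 34.7 and 28.2 FPKM in the DM rats and 37.6, 35.3 and 33.9 FPKM in the ND rats, had a log2 fold change of -0.14 with 1 low DM rat (limma, unadjusted p = 0.190). Mapk3 had one of 0.025 with an interval of -0.12 to 0.17 (limma, adjusted p = 0.963). In the JNK arm Mapk8 had one of 0.12 with an interval of -0.13 to 0.37 (limma, adjusted p = 0.883), and Map2k4 one of 0.13 with an interval of -0.14 to 0.41 (limma, adjusted p = 0.869).

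The genes around the kinases were taken from lists of RAS and RAF genes, scaffolds, phosphatases, inhibitors, downstream kinases and transcription factors. Of the 84 symbols listed 83 were found, and 68 genes were tested. The unadjusted p from limma was below 0.05 for 1 of the 68, or 1.47%, against 7.46% of all genes, and the groups did not overlap for 4, or 5.88%, against 13% of all genes. The gene that passed was Rps6ka3, which encodes RSK2, a kinase activated by ERK. It was at 3.23, 3.66 and 4.27 FPKM in the DM rats and at 4.79, 4.43 and 4.61 FPKM in the ND rats, a difference of -0.31 ± 0.13 (SE) in log2 (limma, unadjusted p = 0.0463, adjusted p = 0.665). The other 3 without overlap were Braf, a MAP3K of the ERK arm outside the naming rule, with a log2 fold change of 0.11, Ddit3, a stress-induced transcription factor gene, with 0.21, and Atf7 with -0.12, none with an unadjusted p below 0.05.

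By list, the MAP kinase phosphatases and the feedback inhibitors of the ERK route had the lowest medians, and no member of either passed the threshold. The median log2 fold change was -0.15 over the 6 dual-specificity phosphatase genes tested and -0.23 over the 5 Sprouty and Spred genes tested. The latter went from -0.33 for Spred1 to 0.33 for Spred2, with 3 genes below and 2 above 0. Dusp1, an immediate early phosphatase, was at 1.77, 1.73 and 2.42 FPKM in the DM rats and at 2.28, 2.85 and 2.62 FPKM in the ND rats, with a log2 fold change of -0.38 and groups that overlapped (limma, unadjusted p = 0.0708). For the 11 genes of the RAS switch and its adaptors the median was -0.0066, and for the 14 scaffolds and MAP3K partners it was 0.058, with 0 genes past the threshold in either list. Of the 11 kinases activated by MAPKs only Rps6ka3 passed, and of the 13 transcription factors tested 0 did.

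**Figure D5:**
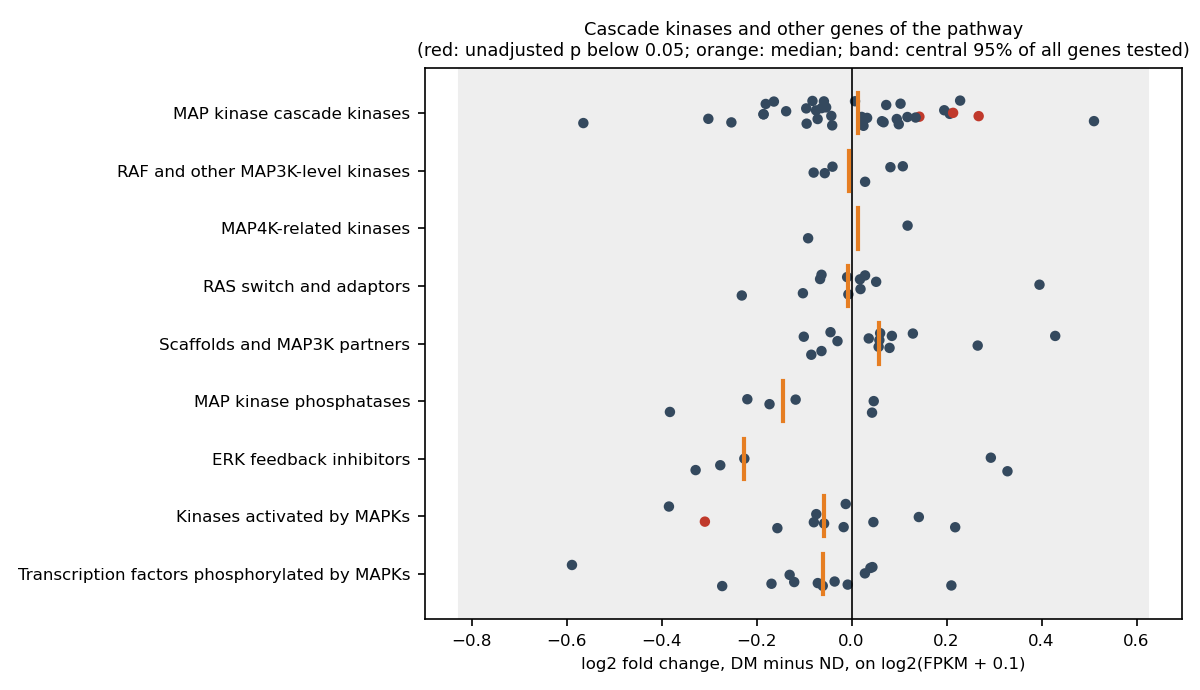
Log2 fold change (DM minus ND) of the 38 cascade kinases and of 68 other genes of the pathway by list, 1 point per gene, with the median of each list as an orange bar and unadjusted p below 0.05 from limma in red. The grey band holds the central 95% of all genes tested, from -0.83 to 0.62, and all 38 kinases lie inside it.

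The start regions of the kinase genes were rich in G and C. RefSeq (GRCr8) gave a promoter of 300 bases, 250 before and 50 after the start of the gene, for 36 of the 42 members. Their median GC content was 66.2%, against 55% over 21851 promoters of protein-coding genes, and they held a median of 26 CG pairs against 11. The GC box GGGCGG stood on either strand of 26, or 72.2%, against 41.8% of all, and TATAAA in 0 of 36, against 13.0%. The cyclic AMP response element TGACGTCA, which reads the same on both strands and is the site of the spermatid activator CREM, stood in 2 of 36, or 5.56%, against 2.10% of all. These 2 are shown with 30 bases each and the element in capitals. Mapk10 was at 9.54 to 14.6 FPKM and Map3k13 at 0.703 to 1.04 FPKM in the 6 rats. A link between the element and either level was not tested.
Mapk10, chr14:6802205-6802234 (+): tctctgggcttTGACGTCAtgtgtgctcct
Map3k13, chr11:92739693-92739722 (-): tgtgtcggaagTGACGTCAtacgcggaagt
The element begins 78 bases before the start of Mapk10 and 48 bases before that of Map3k13. A match of letters is a description and not a binding site.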

How the data were processed

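RNA-Seq of 6 rat testes was used, 3 DM and 3 ND, grouped by the sample titles. The small RNA libraries were not analysed here. The authors compared the reads with rRNA using BWA, aligned them with STAR, assembled transcripts with StringTie and deposited FPKM per gene. Versions and the genome build are not given in the sources used here. The study screened its transcripts with a count-based tool, and since FPKM are not counts, limma 3.58.1 in R 4.3.3 (lmFit, eBayes with trend, Benjamini-Hochberg over all 20338 genes that averaged 0.5 FPKM or more) was run on log2(FPKM + 0.1). Intervals are moderated 95% intervals. Exact permutation tests were run in Python 3.11.15. FPKM of near-identical or overlapping genes depend on how StringTie assigned the reads, and 20 of the 42 members overlap another RefSeq gene.

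The members and the lists were chosen with earlier results of these data known. Genes named with values are the ERK5 arm, members with an unadjusted p below 0.05 or groups that do not overlap, the highest member of each tier and arm, the largest rise and fall of each tier and the members below the filter. Of other pathway genes these are Mef2c and those with an unadjusted p below 0.05 and no overlap, at most 12. Other genes were named after their values were seen. Alternatives were other pseudocounts, filters, scalings and eBayes settings, a replicate block, protein-coding genes only and leaving out each rat. Precision rests on the spread between 3 rats, and nothing says how the RNA of a rat was sampled. Some members and pathway genes that entered the fits and counts are not reported here by name.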

Additional observations from a re-analysis of the deposited data

How the results depend on the processing

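The count of members with an unadjusted p from limma below 0.05 was 3. It was 0 with the replicate block, where 8.12% of all genes passed, and 1 after rescaling to TPM, where 7.39% did, against 7.46% in the main fit. With 1 rat left out it was 1 without DM replicate 3 (Mapk15) or ND replicate 2 (Map2k3) and 0 without any of the others. In those fits 5.57% to 7.79% of all genes passed. Map2k3 was past that threshold under every alternative without a block that kept all 6 rats, Mapk15 under all of these but rescaling to TPM and eBayes without the trend, and Map4k3 under 3 of them, a pseudocount of 1, median-ratio scaling and no filter. The count of members past an absolute log2 fold change of 1 and that of members with an adjusted p below 0.05 were 0 under every alternative run, with 0.488 as the lowest adjusted p of any member. The members without overlap numbered 9 to 16 with a rat left out, against 8, as fewer values overlap less (16 without DM replicate 3 and 13 without ND replicate 1 or 3). The share of all genes without overlap was not computed with a rat left out, so these counts say nothing particular about the members. The count of other pathway genes with an unadjusted p below 0.05 was 1, and it was 2 with eBayes without the trend and with median-ratio scaling, 5 among protein-coding genes only, 0 with the replicate block and 0 to 4 with a rat left out (0 without DM replicate 1 or ND replicate 2, 2 without ND replicate 1, and 4 without DM replicate 3 or ND replicate 3). Of all genes, 7.91% passed without the trend, 7.57% with median-ratio scaling and 8.89% among protein-coding genes only. The log2 fold change turned its sign in 4 fits that left out a rat, for Mapk7 (-0.042 to 0.107 over the 6 fits), Map3k2 (-0.079 to 0.0069) and Mapk3 (-0.0097 to 0.060), and kept it for the other named members tested under every alternative. Mapk4 was past the threshold of 0.05 when the fit was limited to protein-coding genes, or left out the trend. That of Map2k5 stayed between 0.037 and 0.174. The median over the members was -0.019 to 0.017 with a rat left out, -0.041 when the filter was raised to 1 FPKM and 0.043 with median-ratio scaling. The cause of these shifts was not tested.

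The replicate numbers name different rats. Deviations of same-numbered rats from their group means correlated across genes with r = 0.106, 0.0153 and 0.0979. DM replicates 1 and 3 matched the ND rat of their own number best, and DM replicate 2 matched ND replicate 3 best. The numbers were not taken as pairs, since they name different rats. The check cannot decide whether same-numbered rats shared a step in handling, which the labels do not give. With the replicate block, 0 members had an unadjusted p from limma below 0.05, against 3 without it. The share of all genes was 8.12% with the block and 7.46% without it.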
